A study of Mus musculus with 4 samples.

Results

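The nuclei described here are hypothalamic neurons of old mice that carried RNA of at least 2 of the 4 genes Gal, Nts, Ecel1 and Stac. A neuron was a nucleus with 1000 or more unique molecular identifiers (UMIs, counts of distinct RNA molecules) and 3 or more UMIs of Snhg11, a neuronal non-coding RNA. A neuron was a member when its UMIs of the 4 genes summed to 3 or more and at least 2 of them were detected. There were 145 members among 4243 neurons and 6158 nuclei, 69 in the matrix labelled control replicate 1 and 76 in that labelled control replicate 2. All other neurons of the same matrix, 2751 and 1347 nuclei, were the comparison.

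The study profiled frozen whole hypothalamus of mice about 18 months old, 2 samples labelled control and 2 labelled as transplanted with hypothalamic stem cells of human pluripotent origin. The labels used here give no strain, sex or genotype. Titles of 2 samples join a pair of animal codes (C1_C2 and T1_T3), and whether those animals were pooled is not stated. Nuclear RNA was read from the 3' end with Chromium chemistry version 3.1, so a level is RNA in the nucleus, not in the whole cell.

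Galanin (Gal) and neurotensin (Nts) are neuropeptides that hypothalamic neurons release beside a fast transmitter. Both act through G protein-coupled receptors, and both are known from neurons that bear on feeding, reward, body temperature and sleep. Ecel1 encodes a membrane peptidase-like protein of the neprilysin family that neurons make, and Stac an adaptor protein that binds L-type calcium channels. None of the 4 genes marks a single cell type of the hypothalamus, and galanin neurons in particular are spread over many of its nuclei.

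Each set of nuclei was deposited under both labels. Transplanted replicate 1 shared 3997 barcodes with the 4008 of control replicate 1, and transplanted replicate 2 shared 2144 with the 2150 of control replicate 2. Any other 2 matrices had 4 barcodes in common. The data therefore hold 2 distinct libraries, no effect of transplantation on these neurons can be measured, and only the control-labelled matrices entered the results, so that n is 2. They held 8779880 and 4924563 UMIs. The members were somewhat deeper than other neurons, with medians of 2925 against 2352 UMIs per nucleus in replicate 1 and 3198 against 2656 in replicate 2. The p-values rest mainly on variance estimates shared across genes, since 2 libraries say little about how the difference of a single gene varied between them. The titles give the 2 control-labelled matrices different animal codes, but each set of nuclei also stands under a transplanted title. Which animals gave each library is therefore not certain, and variation between the libraries may be technical.

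Members were 2.45% of neurons in replicate 1 (exact 95% interval 1.91% to 3.09%) and 5.34% in replicate 2 (4.23% to 6.64%). The intervals do not overlap, but they cover counting error only, and a share depends on depth and on how the tissue was sampled. Among nuclei of 1000 or more UMIs with fewer than 3 Snhg11 UMIs, 0 of 184 in replicate 1 and 0 of 178 in replicate 2 met the count rule for the 4 genes. A count of 0 allows shares of up to 1.63% and 1.69% there, at medians of 1242.5 and 1236.5 UMIs, which is shallower than the neurons. The rule rests on few molecules. In the other deposit of the same nuclei, 54 of the 69 members (78.3%) and 60 of the 76 (78.9%) met the rule again, and of the 15 and 16 that did not, 9 and 12 had stood at the minimum of 3 UMIs.

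The 4 genes of the rule chose the members, so their levels are given as a description with no test: the members were chosen by the UMIs of Gal, Nts, Ecel1 and Stac themselves. A level (CPM) is the UMIs of a gene divided by all UMIs of the summed group, put on 1 common scale. Gal (ENSMUSG00000024907) stood at 715 CPM in members against 63.2 CPM in other neurons in replicate 1 and at 525 against 40.8 CPM in replicate 2. Ecel1 (ENSMUSG00000026247) stood at 477 against 48.9 CPM and at 593 against 69.6 CPM. Stac (ENSMUSG00000032502) stood at 177 against 17.7 CPM and at 194 against 26.4 CPM. Of the 4 genes, Nts (ENSMUSG00000019890) differed most between the libraries, at 75.0 CPM in the members of replicate 1 and 220 CPM in those of replicate 2, against 6.33 and 9.95 CPM in other neurons. The 17 and 59 Nts UMIs came from 11 and 24 members, with up to 4 and 9 in 1 nucleus. The larger share of members in replicate 2 came with more members carrying Nts, but not with these alone. Members without Nts numbered 58 among 2820 neurons in replicate 1 and 52 among 1423 in replicate 2.

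Most members paired Gal with Ecel1. In replicate 1, 37 of 69 had these 2 genes alone, 9 had Ecel1 with Stac, 7 Gal with Stac, 4 Gal with Nts and 1 Nts with Stac. In replicate 2, 29 of 76 had Gal with Ecel1 alone, 12 Ecel1 with Stac, 4 Gal with Stac and 2 Gal with Nts. The combination of Nts with Ecel1 alone was seen in 10 members of replicate 2 and 0 of replicate 1. Gal and Ecel1 came with Stac in 5 and 7 further members and with Nts in 3 and 6. Members with 3 of the genes numbered 11 and 18, and a single nucleus, in replicate 2, carried all 4. The 9 and 12 members with Ecel1 and Stac alone carried no RNA of either peptide.

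**Figure D1:**
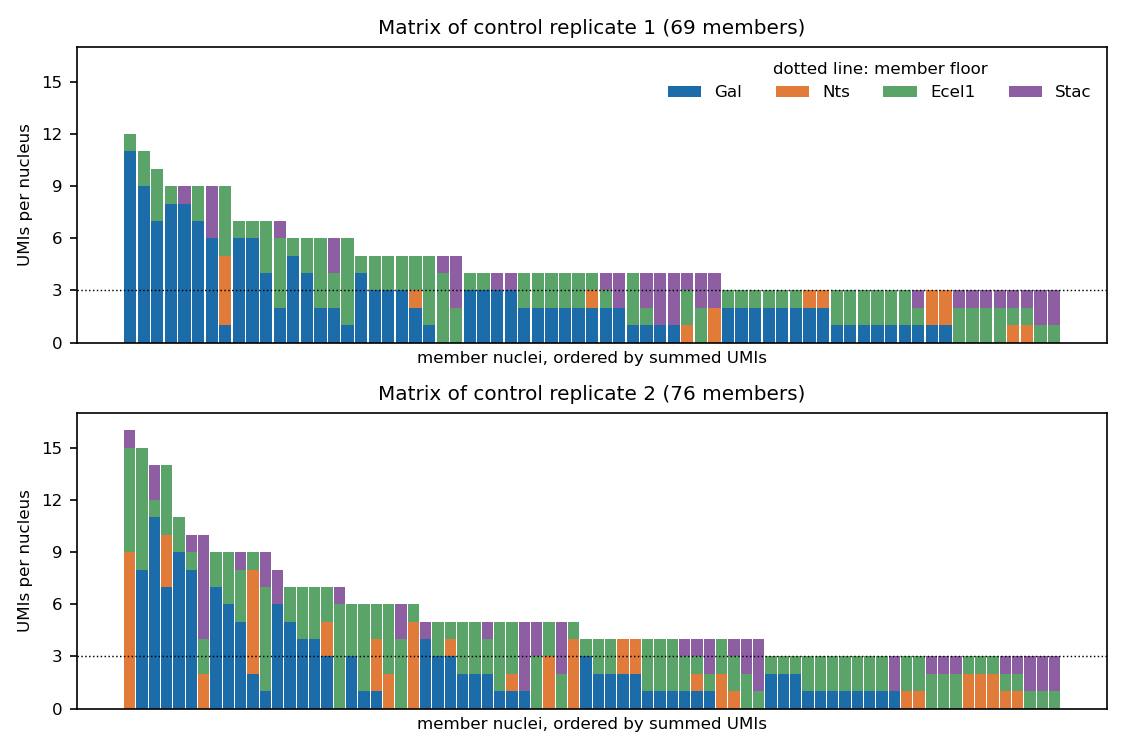
UMIs of Gal, Nts, Ecel1 and Stac (stacked) in each member nucleus of control replicate 1 (upper panel, 69 members) and control replicate 2 (lower panel, 76 members), ordered by their sum; the dotted line is the floor of 3 UMIs. Gal with Ecel1 fills most columns in both panels, Nts is seen in 11 and 24 members, and 25 and 24 columns stand at the floor.

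Many members lay close to the threshold. The median sum was 4 UMIs in both matrices and the highest was 12 in replicate 1 and 16 in replicate 2. Sums of exactly 3 were held by 25 and 24 members, sums of 5 or more by 25 and 37. Just outside the rule, 48 and 35 neurons had 1 UMI each of 2 of the genes, and 67 and 38 had 3 or more UMIs of a single one. Of the latter, 45 and 17 carried Gal, 16 and 15 Ecel1, 4 and 4 Stac, and 2 and 2 Nts. A neuron rich in galanin RNA alone is therefore counted among the other neurons.

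Over all neurons, each of the 4 genes was detected in a larger share of the neurons with another of them than of the neurons without it, in both matrices and with all UMIs counted. These shares do not use the member rule. Ecel1 was detected in 26.6% of the neurons with Gal and 10.9% of those without in replicate 1, and in 40.9% against 16.5% in replicate 2. Deep nuclei show more of every gene, so each neuron was also thinned to 1000 UMIs. The values were then 12.7% against 5.56% and 16.2% against 9.52%. The exact 95% intervals stayed apart in replicate 1 (7.91% to 18.9% against 4.72% to 6.50%) and overlapped in replicate 2 (8.36% to 27.1% against 8.01% to 11.2%). Nts and Ecel1 were found together in replicate 2, where Ecel1 was detected after thinning in 40.0% of the 25 neurons with Nts and 9.30% of those without. In replicate 1 the same values were 8.70% of 23 neurons and 5.93%. After thinning, 0 of the 158 neurons with Gal in replicate 1 had Nts, against 0.864% of those without Gal. The exact 95% interval of that 0 reached 2.31%, so a lack of Nts beside Gal was not shown. In replicate 2 Nts was in 4.41% of neurons with Gal against 1.62%, with overlapping intervals. Stac was detected after thinning in 1.90% of neurons with Gal and 2.18% of those without in replicate 1. In replicate 2 it was 4.41% against 3.32%. With and without Ecel1, Stac was in 4.76% against 1.998% in replicate 1 and 3.57% against 3.35% in replicate 2. With and without Nts it was in 8.70% against 2.11% and 8% against 3.29%. The exact 95% intervals overlapped for each Stac pair in both matrices, so an excess of Stac beyond depth was not shown.

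Hmcn1, an extracellular matrix protein, and Rorb, a nuclear receptor, are named with the label of this neuron group but are not in the rule. Hmcn1 stood at 30.9 against 18.6 CPM in replicate 1 and 29.8 against 13.9 CPM in replicate 2, yet it was detected in only 4 and 3 members, and 3 of its 7 UMIs and 6 of its 8 came from 1 nucleus per matrix. That nucleus was in both cases the member with the most orexin RNA. Without the 2 nuclei, Hmcn1 was at 18.2 and 7.62 CPM in members, near or below the other neurons. Rorb stood at 486 against 282 CPM and 313 against 204 CPM, with 38 and 32 members carrying it, and at 427 and 301 CPM without the 2 nuclei. In the 13 and 2 neurons with 10 or more UMIs of Hcrt, the orexin precursor, Hmcn1 was at 176 and 841 CPM and Rorb at 1257 and 946 CPM. Those genes thus described orexin-rich nuclei more than the members, of which only 1 per matrix was orexin-rich, and the members are called here by the 4 genes of the rule.

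Most members carried the genes of GABA neurons, the inhibitory class. A nucleus was counted as GABA only when it had a UMI of Gad1, Gad2 (both GABA-synthesizing enzymes) or Slc32a1 (the vesicular GABA transporter) and none of Slc17a6 (the vesicular glutamate transporter VGLUT2). In replicate 1, 48 of 69 members (69.6%, exact 95% interval 57.3% to 80.1%) were GABA only against 36.0% of other neurons (34.2% to 37.8%). In replicate 2 it was 59 of 76 (77.6%, 66.6% to 86.4%) against 37.6% (35.0% to 40.3%). Glutamate only nuclei were rare among members, 4 in each matrix (5.80% and 5.26%), against 27.4% and 24.4% of other neurons. After thinning to 1000 UMIs the GABA only shares were 46.4% against 25.1% and 38.2% against 21.9%, and the glutamate only shares 2.90% against 15.0% and 2.63% against 12.03%. Members and other neurons kept separate intervals for both classes in both matrices. Nuclei with fewer than 3 Snhg11 UMIs were taken as a guide to free RNA, at medians of 1242.5 and 1236.5 UMIs, shallower than members. With all UMIs counted, Gad2 was detected in 1.63% of 184 and 3.37% of 178 of them, against 60.9% and 64.5% of members.

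**Figure D2:**
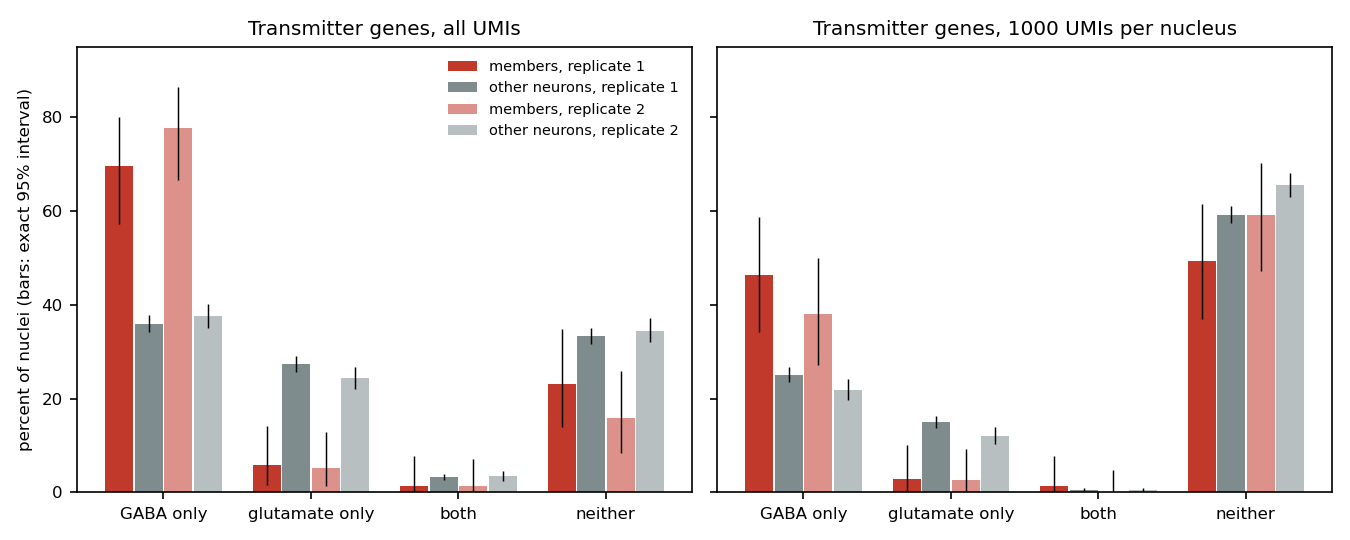
Percent of member nuclei (red) and other neurons (grey) by transmitter genes in control replicate 1 (dark) and control replicate 2 (light), with all UMIs (left) and after thinning to 1000 UMIs per nucleus (right); error bars are exact 95% intervals for counting error. GABA only nuclei made up 69.6% and 77.6% of members against 36.0% and 37.6% of other neurons, and glutamate only nuclei 5.80% and 5.26% against 27.4% and 24.4%.

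Outside the rule and label genes, 12073 genes were compared between the summed members and the summed other neurons, with the matrix as a block (edgeR quasi-likelihood test, Benjamini-Hochberg adjusted p under 0.05). Of these, 56 genes were higher in members (0.464%) and 83 were lower (0.687%), 139 in all (1.15%). The median log2 difference over all genes was -0.05. The direction was the same in both matrices for 136 of the 139. The exceptions, chosen after their values were seen, were Sgcd, Prlr and Prkch, which had no excess in 1 of the matrices. A further reservation is that 4 sums leave 1 residual degree of freedom, and other tools called fewer genes (DESeq2 called 7 higher and 10 lower, edgeR without the block 2 and 1). The fit also reads a gene carried by a single nucleus as a difference. Since variance was shared across genes, a small p does not show that a difference was alike in both matrices. Tafa1, at log2 -0.69 in replicate 1 and -2.98 in replicate 2, had an edgeR adjusted p of 4.20e-14.

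The 10 genes with the smallest p among those higher in members included an inhibitory enzyme, peptides, a steroid receptor and regulators. Gad2 was at 446 and 425 CPM in members against 222 and 177 CPM in other neurons, log2 difference 1.09 (standard error 0.16, edgeR adjusted p 2.46e-09). Both member values were above both others, and 42 and 49 members carried it. Esr1, the oestrogen receptor alpha, was at 106 and 231 CPM against 36.2 and 49.3 CPM (log2 1.91, standard error 0.24, adjusted p 8.35e-13), in 11 and 25 members. Cartpt, the precursor of the feeding-related CART peptides, was at 305 and 101 CPM against 61.4 and 40.8 CPM (log2 1.86, standard error 0.22, adjusted p 6.78e-14), in 18 and 13 members. Both genes stood higher in members of each library, Esr1 more so in replicate 2 and Cartpt more so in replicate 1.

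Pbx3, a homeobox transcription factor, was at 433 and 339 CPM against 205 and 157 CPM, log2 1.04. Pappa, a secreted protease that cleaves insulin-like growth factor binding proteins, was at 35.3 and 149 CPM against 10.5 and 22.6 CPM, log2 2.39. Its 40 UMIs in replicate 2 came from 10 members, 13 of them from 1 nucleus, and without the deepest 5% of nuclei the log2 difference was 1.51 with an adjusted p of 0.146. Acvr1c, which encodes the activin-type receptor ALK7, was at 163 and 26.1 CPM against 22.9 and 14.4 CPM, log2 2.19. Most of that difference lay in replicate 1, where 13 members carried it. Sv2c, a synaptic vesicle glycoprotein, showed the reverse order of libraries, 44.1 and 168 CPM against 29.6 and 31.1 CPM, log2 1.73. Mbnl3, an RNA-binding splicing regulator, was at 61.8 and 22.4 CPM against 5.80 and 3.48 CPM, log2 3.10, on 14 and 6 UMIs. Bcl6, a transcriptional repressor, was at 115 and 37.3 CPM against 22.4 and 18.4 CPM, log2 1.79. The adjusted p of these 6 genes lay between 1.02e-09 for Pappa and 7.85e-05 for Bcl6, and member values lay above other-neuron values in each. Without the top nucleus per gene, Mbnl3 did not pass (adjusted p 0.155), and with DESeq2 Acvr1c, Sv2c and Bcl6 did not (adjusted p 0.0549, 0.233 and 0.197).

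Hcrt had the smallest p of all genes and shows how few nuclei can carry such a value. It stood at 380 and 294 CPM in members against 71.3 and 14.2 CPM in other neurons, log2 3.10 with an adjusted p of 3.64e-53. Of its 86 UMIs in replicate 1, 78 came from 1 member, and of the 79 in replicate 2, 77 came from 1 member. With the top member nucleus left out in each matrix, the log2 difference was -0.79 with an adjusted p of 0.736. These 2 nuclei entered the set through Stac (3 and 4 UMIs) with 1 UMI of Gal each. When all nuclei with 10 or more Hcrt UMIs were left out, 22 genes were higher (0.182%) and 37 lower (0.307%) of 12056, 59 instead of 139, and all 59 were among the 139. Of the 20 genes named by smallest p, 19 kept their call. The edgeR adjusted p rose also where the log2 difference hardly moved. Gad2 had log2 1.12 instead of 1.09, with an adjusted p of 0.00078 instead of 2.46e-09. Slc17a6 had -2.19 instead of -2.15, with 0.000297 instead of 2.33e-11. Hcrt and Rfx4 fell to log2 0.83 and 1.01. The lower count of calls is thus no measure of how many differences those nuclei carried, and its cause was not tested.

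**Figure D3:**
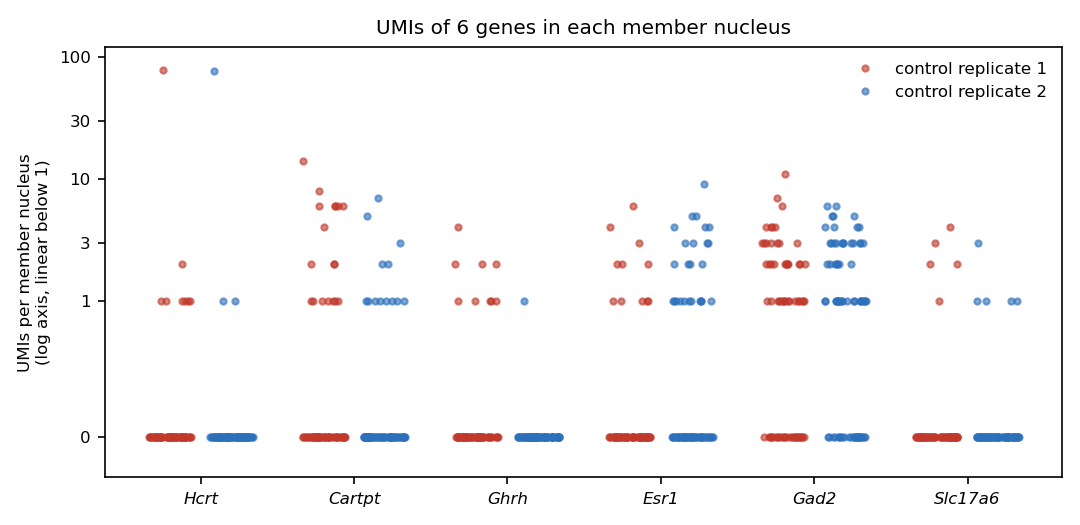
UMIs per member nucleus (log axis, linear below 1) of Hcrt, Cartpt, Ghrh, Esr1, Gad2 and Slc17a6, each point 1 nucleus, in control replicate 1 (red, 69 members) and control replicate 2 (blue, 76 members). In each matrix 1 nucleus holds 78 and 77 Hcrt UMIs and the others that carry it, of 8 and 3 in all, hold 1 or 2 each, whereas Gad2 is spread over 42 and 49 members and Slc17a6 over 5 in each.

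Among the genes lower in members, Slc17a6 was at 53.0 and 26.1 CPM against 192 and 140 CPM (log2 -2.15, standard error 0.28, adjusted p 2.33e-11), detected in 5 members of each matrix. Several others act at the synapse or in adhesion. Cacna2d1, the calcium channel subunit alpha2delta-1 that gabapentin binds, was at 539 and 201 CPM against 949 and 786 CPM, log2 -1.37. Tafa1, a secreted chemokine-like protein of the brain, was at 278 and 55.9 CPM against 449 and 449 CPM, log2 -1.58. Unc13c, a vesicle priming factor, was at 106 and 48.4 CPM against 230 and 233 CPM, log2 -1.67. Nxph1, a secreted ligand of neurexins, was at 335 and 201 CPM against 617 and 613 CPM, log2 -1.27. In each of these genes both member values lay below both others, and the difference was larger in replicate 2.

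Tenm2, a teneurin adhesion protein, was at 1898 and 1941 CPM against 3731 and 3414 CPM, log2 -0.94, and Cntn5, a contactin, at 870 and 771 CPM against 1660 and 1596 CPM, log2 -1.04. Those 2 differences were alike in the libraries. Slit2, an axon guidance ligand, was at 265 and 134 CPM against 454 and 387 CPM, log2 -1.17. Tmem163, a zinc transporter of vesicles, was at 53.0 and 11.2 CPM against 141 and 156 CPM, log2 -2.34. Adamtsl1, a secreted matrix protein, had 4 UMIs in members of replicate 1 (17.7 against 80.2 CPM) and 0 in those of replicate 2, where other neurons had 114 CPM. A count of 0 was taken as 3 counts per library, which makes Adamtsl1 at least 10.2-fold lower there. The largest adjusted p of the 10 genes was 3.88e-08, for Slit2, and with DESeq2 Tafa1 and Adamtsl1 did not pass.

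**Figure D4:**
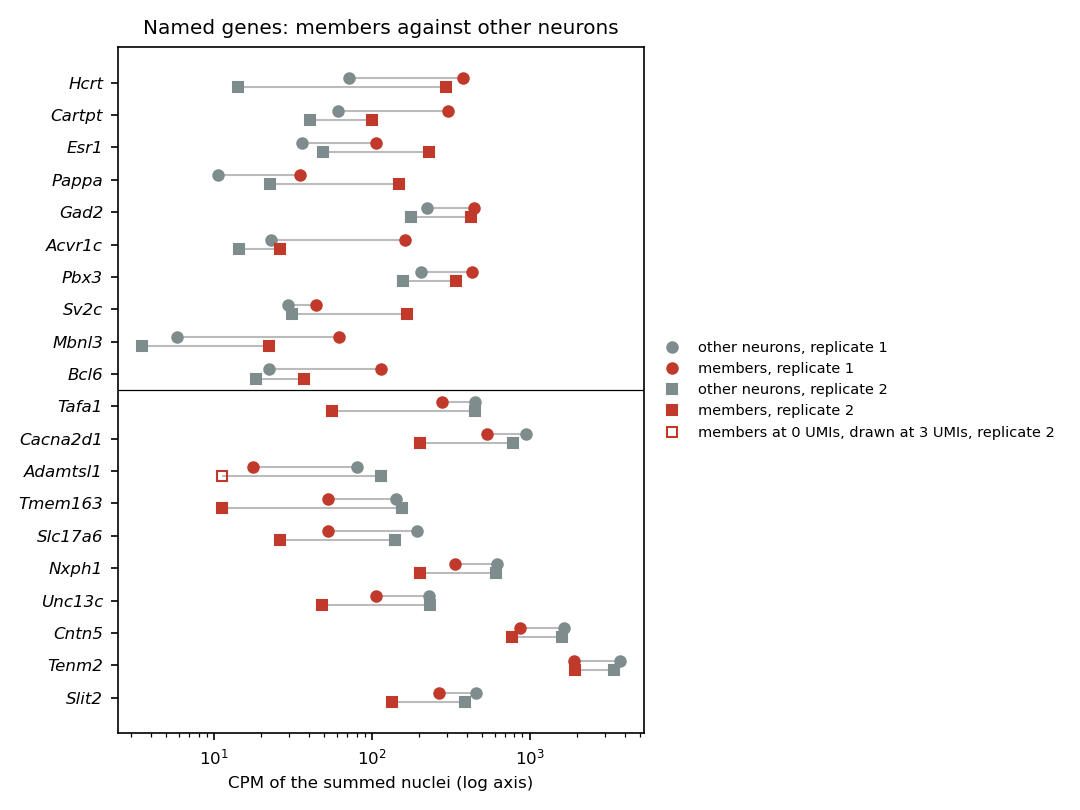
Summed CPM (log axis) of the 10 genes with the smallest p among those higher in members (above the line) and among those lower (below the line), for members (red) and other neurons (grey) in control replicate 1 (circles) and control replicate 2 (squares); the open square marks 0 UMIs drawn at the level of 3. Member values of every gene shown lie on 1 side of both other-neuron values.

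Because members were mostly GABA neurons and other neurons were mixed, the comparison was repeated within GABA only nuclei, 48 and 59 members against 990 and 507 other neurons. Of 9505 genes, 6 were higher (0.0631%) and 6 lower (0.0631%), 12 in all (0.126%), and all 12 were among the 139. The 6 higher genes were Mbnl3 (log2 3.36), Pappa (2.34), Plekhg1 (2.31), Acvr1c (2.21), Cartpt (1.68) and Pbx3 (0.96). The 6 lower were Pmch (-3.91), Npsr1 (-3.71), Meis2 (-2.71), Tafa1 (-2.02), Nxph1 (-1.50) and the long non-coding RNA Sox2ot (-1.39). Among the genes named by smallest p, Cacna2d1 had a log2 difference of -0.31 (adjusted p 0.952) instead of -1.37, Tmem163 of -1.03 (adjusted p 0.850) instead of -2.34 and Hcrt of -0.11 (adjusted p 0.998) instead of 3.10, whereas Tenm2 had -0.73 (adjusted p 0.147) beside -0.94. Gad1, Gad2, Slc32a1 and Slc17a6 chose these nuclei, so their values within them are no test. Esr1 had 63.8 and 236 CPM against 40.5 and 68.5 CPM within GABA nuclei, log2 1.42 with an adjusted p of 0.0833, and did not pass. This comparison had fewer nuclei, and a missed threshold does not show equality.

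Of the 34 neuropeptide genes considered beside the 2 of the rule, 20 could be tested, 2 were higher (Hcrt and Cartpt) and 1 was lower, with a median log2 of 0.09. These 15% called stand beside 1.15% of all genes tested, but this and the later lists were chosen with earlier results of these data known. The Hcrt call rested on 1 nucleus per matrix. Pmch, the precursor of melanin-concentrating hormone, was the lower one, at 13.2 and 7.45 CPM against 75.0 and 47.5 CPM, log2 -2.63 with an adjusted p of 4.24e-05. It came from 3 and 2 single UMIs in members and was present in 2.72% and 5.06% of nuclei with few Snhg11 UMIs. Tac1, the substance P precursor, was at 39.7 and 11.2 CPM against 34.4 and 18.7 CPM and did not pass (log2 -0.16, adjusted p 0.997). Crh, the stress peptide, was at 8.83 and 7.45 CPM against 0.922 and 1.24 CPM, on 2 UMIs in each matrix and did not pass (adjusted p 0.542). Somatostatin (Sst) was at 8.83 CPM against 22.7 CPM in replicate 1 and at 74.5 against 17.4 CPM in replicate 2, where 11 of 20 UMIs came from 1 nucleus, and did not pass (adjusted p 0.334).

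Ghrh, the growth hormone-releasing hormone, was too low over all sums to be tested and was singled out after its values were seen. In replicate 1 its 15 UMIs came from 9 members, 66.2 CPM against 2.37 CPM in other neurons. Of the 22 neurons with a Ghrh UMI there, 9 (40.9%) were members, whereas members were 2.45% of neurons. In replicate 2 a single member had it, 1 of 10 neurons, and the levels were 3.73 and 2.49 CPM. Of the 9 Ghrh members, 8 also carried Gal, 5 Cartpt, 2 Th and 2 Nts. Of all 69 members of that library, 56 carried Gal, 18 Cartpt, 6 Th and 11 Nts. Ghrh RNA in several members was thus seen in 1 library alone.

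Of 10 genes for amine synthesis and transport, 4 could be tested and 1 was higher (25%, against 1.15% of all genes). Th, tyrosine hydroxylase of the dopamine pathway, was at 26.5 and 33.5 CPM against 3.95 and 5.22 CPM, log2 2.65 (standard error 0.62, adjusted p 0.00309). It rested on 6 and 9 UMIs in 6 and 4 members, 4 of the 9 in 1 nucleus. Without the top nucleus per gene the log2 difference was 2.35 with an adjusted p of 0.593. Of the 6 and 4 members with Th, 5 and 3 carried Gal, as did 56 of all 69 and 49 of all 76 members. Ddc, the next enzyme of the pathway, was at 53.0 and 59.6 CPM against 44.1 and 33.6 CPM and did not pass (log2 0.50, adjusted p 0.816). Slc18a2, the vesicular monoamine transporter, was at 39.7 and 3.73 CPM against 45.9 and 24.6 CPM and did not pass either (log2 -0.84, adjusted p 0.692).

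The GABA and glutamate lists gave the following. Of 6 GABA genes 1, Gad2, was higher and 0 were lower (16.7%, against 1.15% of all genes), with a median log2 of 0.41. Slc32a1 was at 106 and 119 CPM against 71.3 and 63.4 CPM (log2 0.70, adjusted p 0.211) and Gad1 at 70.6 and 123 CPM against 46.6 and 67.4 CPM (log2 0.72, adjusted p 0.272). Neither passed, although both members' values were above those of other neurons. Of 3 testable glutamate genes, Slc17a6 alone was lower (33.3%).

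No receptor of galanin or neurotensin was called, of 3 that could be tested out of 7. Galr1, the main inhibitory galanin receptor, had 1 and 2 UMIs in members, 4.41 and 7.45 CPM against 8.57 and 9.70 CPM (adjusted p 0.987). Ntsr1 had 1 and 0 UMIs in members and 4.09 and 6.22 CPM in other neurons, too few to be tested. Sort1 and Sorl1, sorting receptors of which the first also binds neurotensin, were at 75.0 and 78.3 CPM against 51.9 and 76.4 CPM and at 35.3 and 37.3 CPM against 45.5 and 71.4 CPM. Neither passed (adjusted p 0.983 and 0.562). At counts this low a difference in Galr1 or Ntsr1 was not detectable.

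Of 28 testable receptors for feeding signals and hormones (44 on the list), 3 were higher and 1 was lower (14.3%, against 1.15% of all genes), with a median log2 of 0.10. Lepr, the leptin receptor, was at 88.3 and 26.1 CPM against 18.7 and 12.7 CPM (log2 1.76, standard error 0.40, adjusted p 0.00182), in 11 and 4 members. Of the 11, 10 also carried Gal and 4 Nts, where 56 and 11 of all 69 members did. In replicate 2, 4 of the 7 Lepr UMIs came from 1 nucleus. Without the top nucleus per gene the log2 difference was 1.40 with an adjusted p of 0.311. Ghr, the growth hormone receptor, was at 631 and 224 CPM against 259 and 189 CPM (log2 0.79, adjusted p 0.000186), so that the groups overlapped. Prlr, the prolactin receptor, was at 88.3 CPM against 90.8 CPM in replicate 1 and at 298 against 122 CPM in replicate 2 (log2 0.79, adjusted p 0.00743), a difference of replicate 2 alone. Npsr1, the neuropeptide S receptor, was lower at 26.5 and 3.73 CPM against 53.8 and 51.2 CPM (log2 -1.93, adjusted p 0.00594). Ghr, Prlr and Npsr1 did not pass once nuclei with 10 or more Hcrt UMIs were left out (adjusted p 0.0688, 0.229 and 0.124). Their log2 differences there were 0.81, 0.82 and -1.90, close to those with all nuclei. In the other deposit of the same nuclei, Lepr, Ghr and Prlr did not pass (adjusted p 0.0912, 0.117 and 0.803).

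Of 10 testable steroid and nuclear hormone receptors, Esr1 was higher and Rora, a retinoid-related orphan receptor, was lower (20%, against 1.15% of all genes), with a median log2 of 0.06. Rora was at 592 and 712 CPM against 786 and 1058 CPM (log2 -0.54, adjusted p 0.026). With the size factors of DESeq2 in edgeR its adjusted p was 0.0834. Without the nuclei rich in Hcrt its log2 difference was -0.52 with an adjusted p of 0.180. Pgr, the progesterone receptor, which oestrogen receptor induces, was at 79.5 and 134 CPM against 62.2 and 60.2 CPM and did not pass (log2 0.77, adjusted p 0.142). Of the 25 members with Esr1 in replicate 2, 24 carried Ecel1, 16 Gal, 14 Gad2 and 9 Nts. Among all 76 members there, 70 carried Ecel1, 49 Gal, 49 Gad2 and 24 Nts. In replicate 1 the 11 members with Esr1 included 9 with Ecel1, 9 with Gal and 1 with Nts. All 69 members there included 57, 56 and 11. The rule chose members by Ecel1, Gal and Nts, so these overlaps are a description and no test.

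Among transcription factors of hypothalamic patterning, 47 of 77 could be tested, 3 were higher and 8 lower, with a median log2 of -0.37, or -0.16 with genes at 0 in members set to their bound. The share called was 23.4%, against 1.15% of all genes. Most of these calls did not hold in other settings. When nuclei with 10 or more Hcrt UMIs were left out, 3 of the 47 were called (Pbx3 higher, Sim1 and Ebf3 lower), 6.38% against 0.489% of all genes, and the other 8 did not pass. With DESeq2, Pbx3 was the 1 gene called of the 18 on the list that had an adjusted p. Pbx3 was described above. Dlx1, a determinant of forebrain GABA neurons, was higher at 35.3 and 41.0 CPM against 7.12 and 16.7 CPM (log2 1.65, adjusted p 0.0463), in 8 and 7 members. Without the nuclei rich in Hcrt its log2 difference was 1.68 with an adjusted p of 0.179. Rfx4 was higher at 57.4 and 41.0 CPM against 18.6 and 9.70 CPM (log2 1.75, adjusted p 0.00496), but 6 of 13 and 7 of 11 UMIs came from 1 nucleus, and without the same nuclei the log2 difference was 1.01 with an adjusted p of 0.782.

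The lower factors were patterning genes of several regions, of which Sim1 and Ebf3 also passed without the nuclei rich in Hcrt. Sim1, a factor of the paraventricular nucleus, was at 17.7 and 7.45 CPM against 57.2 and 67.7 CPM (log2 -2.41, adjusted p 9.86e-05). Meis2 was at 17.7 and 14.9 CPM against 39.5 and 68.2 CPM (log2 -1.79, adjusted p 0.0098), and Tcf7l2, an effector of Wnt signalling, at 13.2 and 7.45 CPM against 45.5 and 38.1 CPM (log2 -2.08, adjusted p 0.0143). Without those nuclei the log2 differences were -1.76 and -2.05, with adjusted p of 0.101 and 0.103. Ebf3 had 1 UMI in members of each matrix, against 30.3 and 46.5 CPM in other neurons, and Ebf2 had 1 and 0, against 25.3 and 28.1 CPM. Lmx1a, Bcl11b and Nkx2-1 had 0 UMIs in all members. They were at least 1.28-fold and 1.94-fold lower (Lmx1a), 1.36-fold and 1.34-fold (Bcl11b), and 1.16-fold and 1.27-fold (Nkx2-1), at the level of 3 counts per library in members. Low counts therefore allow only small bounds for these 3 factors. Ebf2, Lmx1a, Bcl11b and Nkx2-1 did not pass without the nuclei rich in Hcrt (adjusted p 0.0934, 0.0967, 0.156 and 0.209). There Ebf2 had a log2 difference of -3.71, and the other 3 were at 0 UMIs in members with or without those nuclei.

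Of 25 genes of dense-core vesicles, the organelles that release peptides, 2 were higher and 1 was lower (12%, against 1.15% of all genes), with a median log2 of -0.04. Cadps2, a priming factor of these vesicles, was higher at 631 and 511 CPM against 359 and 343 CPM (log2 0.64, adjusted p 0.00285), in 36 and 43 members. Vgf, a secreted granin-like protein, was higher at 26.5 and 116 CPM against 18.2 and 42.0 CPM (log2 1.18, adjusted p 0.0301), but its call did not hold in the other deposit (adjusted p 0.106), with DESeq2's size factors in edgeR (0.0609), without its top nucleus (0.224) or without the nuclei rich in Hcrt (0.174). Pcsk2, a convertase that cuts peptide precursors, was lower at 168 and 201 CPM against 301 and 415 CPM (log2 -0.999, adjusted p 1.42e-05), and both its member values lay below both others. With DESeq2 none of the 3 passed (adjusted p 0.249 for Cadps2, 0.9998 for Vgf and 0.130 for Pcsk2). Within GABA only nuclei none passed either, and the log2 difference of Pcsk2 was -0.55 (adjusted p 0.698). Pcsk1, the other main convertase, was at 97.1 and 33.5 CPM against 24.4 and 32.6 CPM and did not pass (log2 1.12, adjusted p 0.0807), with 11 of its 22 UMIs in replicate 1 from 1 nucleus.

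The relatives of Ecel1 and the partners of Stac were lists of their own. Of 9 testable neuropeptidases 0 were higher and 1 was lower (11.1%, against 1.15% of all genes), Mme (neprilysin), which had 0 UMIs in members against 13.7 and 16.2 CPM in other neurons and was at least 1.03-fold and 1.45-fold lower. In the other deposit Mme did not pass (adjusted p 0.613). Ece1 and Ece2, the closest named relatives on the list, were at 48.6 and 33.5 CPM against 56.0 and 57.5 CPM and at 53.0 and 153 CPM against 114 and 148 CPM, and neither passed (adjusted p 0.805 and 0.73). Of 15 testable genes of the STAC family and the L-type channel, Cacna2d1 alone was called, as lower (6.67%). Within GABA only nuclei Cacna2d1 was higher in members of replicate 1 (453 against 327 CPM) and lower in replicate 2 (94.5 against 268 CPM). It did not pass there (log2 -0.31, edgeR adjusted p 0.952). Cacna1d, a pore subunit, was at 574 and 481 CPM against 621 and 563 CPM (adjusted p 0.843), and Cacnb2, a beta subunit, at 1073 and 924 CPM against 822 and 753 CPM (log2 0.29, adjusted p 0.588). Of 5 testable activity-regulated genes 0 were called by edgeR, and 0 had an unadjusted p under 0.05.

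**Figure D5:**
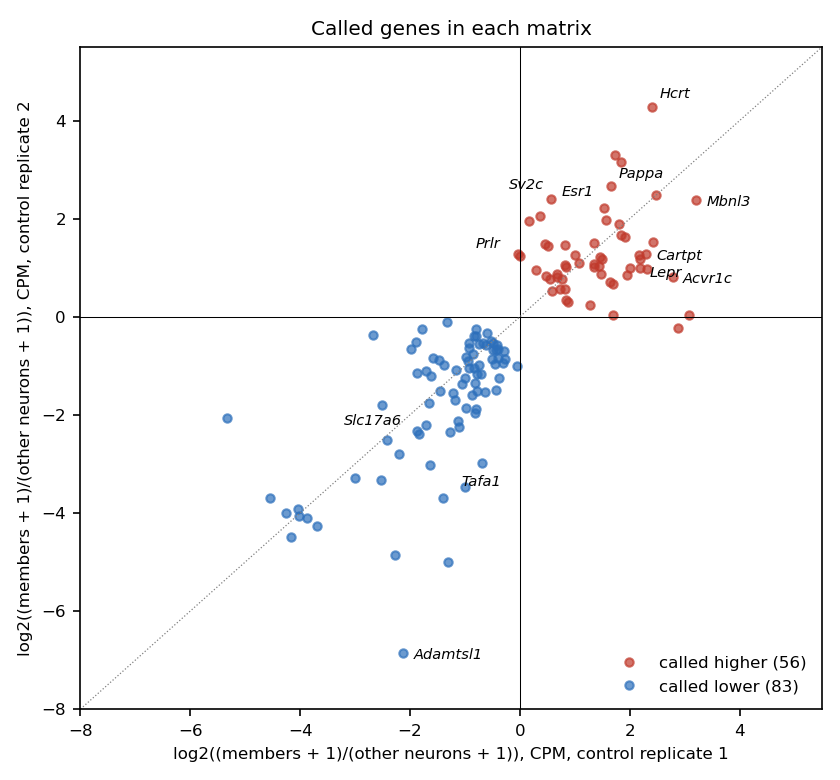
Log2 difference between members and other neurons (CPM with 1 added) in control replicate 1 (horizontal) and control replicate 2 (vertical) for the 139 called genes, 56 higher (red) and 83 lower (blue); the dotted line marks equal differences. Of the 139 points, 136 have the same sign on both axes; Acvr1c and Cartpt lie toward replicate 1, and Sv2c, Esr1 and Prlr toward replicate 2.

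The size of the difference varied between the 2 libraries. Of the 56 higher genes, 23 had a log2 difference above 1 in both matrices, 4 had one above 1 in replicate 1 with under 0.5 in replicate 2, and 5 the reverse. Of the 83 lower genes, 33 were below -1 in both, and 7 had 0 UMIs in all members. Acvr1c (log2 2.78 and 0.81 in replicates 1 and 2), Bcl6 (2.31 and 0.98), Lepr (2.18 and 0.98) and Cartpt (2.29 and 1.28) had the larger value in replicate 1, where Ghrh was also seen. Sv2c (0.56 and 2.39), Prlr (-0.04 and 1.28), Pappa (1.65 and 2.67) and Esr1 (1.52 and 2.21) had it in replicate 2, where Nts was carried by more members. Cartpt, Pappa and Esr1 were above 1 in both. The difference between libraries was not tested, since 1 pair of sums per library leaves no interaction to fit.

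Members with and without Nts were then compared within the set, 11 against 58 nuclei in replicate 1 and 24 against 52 in replicate 2. Of 2828 genes, 8 were higher in members with Nts (0.283%) and 5 lower (0.177%), 13 in all (0.46%). Gpc5, a glypican, was at 362 and 1118 CPM with Nts against 162 and 197 CPM without (log2 1.99, edgeR adjusted p 5.79e-06), in 4 and 12 members, with 10 of the 15 UMIs of replicate 1 in 1 nucleus. Cntnap5b, an adhesion protein, was at 989 and 398 CPM against 232 and 213 CPM (log2 1.51, adjusted p 0.00244), with 21 of the 41 UMIs of replicate 1 in 1 nucleus. The same concentration in 1 nucleus was seen for Hs3st4, a heparan sulphate sulphotransferase (24 of 40 UMIs in replicate 1), and Chrm2, the muscarinic M2 receptor (13 of 15).

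The 5 lower genes were Hcrt, Golga4, Cpne4, Cdh20 and Kcnab1. Kcnab1, a potassium channel beta subunit, was at 24.1 and 87.0 CPM with Nts against 286 and 250 CPM without (log2 -2.05, adjusted p 0.0187), where 23 and 20 members carried it. Golga4, a Golgi protein, had 0 and 1 UMIs with Nts against 29 and 27 without, in 21 and 20 members, and was at least 2.16-fold lower in replicate 1. Cdh20, a cadherin, had 0 UMIs with Nts in both matrices and 14 and 27 without, at least 1.05-fold and 3.86-fold lower. The Hcrt value again came from the 2 orexin-rich nuclei, neither of which carried Nts. In the other deposit of the same nuclei, Golga4, Cpne4 and Kcnab1 did not pass (log2 -0.98, -2.82 and -1.23, edgeR adjusted p 0.906, 0.169 and 0.716). Gpc5 did not pass there either (log2 1.24, adjusted p 0.206). With DESeq2, or with its size factors in edgeR, 0 genes were called in this split. In the fit described, 146 of 2828 (5.16%) had an unadjusted p under 0.05, about the share that a threshold of 0.05 gives without any difference.

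Marker lists of glia made up small shares of member UMIs. Oligodendrocyte markers made up 0.0146% and 0.0116% of member UMIs against 0.0148% and 0.0178% in other neurons, with Mobp and Mog at 0 in both matrices. Astrocyte markers made up 0.00971% and 0.00373% against 0.00805% and 0.00838%, with Gfap and Aqp4 at 0. In nuclei with few Snhg11 UMIs the astrocyte list made up 0.392% and 0.370%. Microglia markers made up 0.0194% and 0.0138% of member UMIs, against 0.0138% and 0.0150% in other neurons and 0.0285% and 0.0104% in nuclei with few Snhg11 UMIs, with Csf1r, C1qa and Inpp5d at 0 in members. Neuron markers made up 3.18% and 2.24% of member UMIs, against 3.40% and 2.34% in other neurons. The orexin list was higher in members, 0.0592% and 0.0607% against 0.0239% and 0.0190%, with the highest nucleus at 1.35% and 1.51%. The list for neurons of melanin-concentrating hormone (Pmch, Cartpt, Tacr3 and Ebf1) was at 0.0393% and 0.0134% in members against 0.0192% and 0.0185%, higher in replicate 1 alone. Of its UMIs in members of replicate 1, 69 were Cartpt and 3 Pmch, and Pmch itself stood lower in members of both matrices. The part of these lists in the results was not tested.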

How the data were processed

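Single-nucleus libraries were analysed from the raw UMI counts the authors deposited. Per the submitters' processing notes, reads went through Cell Ranger 5.0.1 with the build GRCh38, a human one, although the genes in the files carry mouse identifiers. Which mouse build was used is not stated, and no coordinates are printed. Replicates were numbered in accession order. Only the control-labelled matrices were used, since the transplanted-labelled ones held the same nuclei. The members, gene lists and named-gene rule were chosen with earlier results of these data known.

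Counts were summed per matrix over members and over other neurons and tested with edgeR 4.0.16 in R 4.3.3 (TMM, filterByExpr, quasi-likelihood test, matrix as block, Benjamini-Hochberg over all genes tested). The block pairs the 2 sums of a matrix, which share a library. Standard errors were taken as the log2 difference over the root of F. The fit was tested on simulated data with 200 of 11629 genes changed by 1 log2 unit, of which 4% were recovered, and 200 of 11600 changed by 2, of which 55.5% were. In the Nts split the recovery was 2% and 63.5%. False calls were 1 of 9 and 4 of 115 in the first comparison, and 0 of 4 and 5 of 132 in the split. The simulation used a dispersion of 0.05, with no difference that varied between libraries or lay in 1 nucleus. It therefore does not measure how reliable the real calls are. Thinning used seed 1. Intervals are exact (Clopper-Pearson, 95%) and cover counting error only.

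Genes were named by rule: in each direction the 10 with the smallest p that passed and kept their direction in both matrices (5 for the Nts split), a fixed set of peptides, receptors and transporters, and up to 4 genes per list. Some genes that the rule names are not reported here. Others are said to have been picked after their values were seen. No doublet caller was run, and leaving out the deepest 5% of nuclei was an alternative. DESeq2 1.42.0 was another.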

Additional observations from a re-analysis of the deposited data

Results flagged for a closer look

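The matrices labelled transplanted also held nuclei that meet the rule, 73 in transplanted replicate 1 (2.58% of 2825 neurons) and 70 in transplanted replicate 2 (4.91% of 1426), in data that the comparisons above do not use. They were singled out because a signal stood in matrices outside the main measurement. These are largely the same nuclei: 54 of the 73 and 60 of the 70 were members in the control-labelled deposit too (74.0% and 85.7%). They carry no information on the transplant.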

How the results depend on the processing

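Counts of genes higher and lower in members (56 and 83 as reported) stayed within 1.5 times with a floor of 5 Snhg11 UMIs, 1500 UMIs per nucleus, depth-matched other neurons, without the deepest 5% of nuclei, without glial RNA and without the top nucleus per gene. They were 47 and 48 with DESeq2's size factors (49.5% of calls higher instead of 40.3%), 41 and 103 without a low-count filter (28.5% higher), 7 and 10 with DESeq2, 2 and 1 without the replicate block, 24 and 49 in the transplanted-labelled deposits (67 of those 73 among the 139), 11 and 29 at a sum of 5 UMIs, 1 and 6 with 3 of 4 genes, 1 and 24 with membership after thinning, 6 and 6 in GABA nuclei, and 22 and 37 without nuclei rich in Hcrt. The last 2 settings and the top-nucleus one were added after seeing the data. In the Nts split (8 and 5) they were 0 and 0 with those size factors and with DESeq2, 2 and 6 without the filter, 1 and 1 without the block, and 2 and 1 in the other deposits. Shares of neurons were 0.887% and 2.60% at a sum of 5, 0.390% and 1.34% with 3 genes, and 0.426% and 0.984% after thinning.

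Direction changed in these cases, given as log2 differences. With 3 of 4 genes they were Hcrt (-2.63), Mbnl3 (-7.09), Gad1 (-0.13), Ghr (-0.25), Prlr (-0.15), Pgr (-0.033), Pcsk1 (-0.35), Cacnb2 (-0.026) and Cacna2d3 (-0.16). With thinned membership they were Hcrt (-10.33), Prlr (-0.068), Pgr (-0.23), Pcsk1 (-9.48), Cacnb2 (-0.25) and Cacna2d3 (-0.092). In GABA nuclei they were Hcrt (-0.11), Tac1 (0.26), Slc32a1 (-0.22), Gad1 (-0.23), Pcsk1 (-0.0048) and Cacna2d3 (-0.057), where Slc32a1 and Gad1 had chosen the nuclei. At a sum of 5 they were Tac1 (0.029) and Pcsk1 (-0.87). Hcrt was at -1.18 without the deepest nuclei and -0.79 without its top nucleus, and Prlr ranged from -0.040 without control replicate 2 to 1.28 without control replicate 1. Leaving out a matrix leaves no residual degree of freedom, so counts of calls could not be had. The cause of these changes was not tested. The 3-gene and thinned sets held only 11 and 19 and 12 and 14 members. The largest values there were Hcrt (-10.33) and Pcsk1 (-9.48) after thinning and Mbnl3 (-7.09) with 3 genes. Their edgeR adjusted p were 0.465, 0.983 and 0.9999. Fitted values of that size stand for very few UMIs in members and are no estimate of a fold difference.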

Other observations

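Members took a larger share of the neurons with Th than of neurons at large. They were 6 of 32 neurons with a Th UMI in replicate 1 and 4 of 22 in replicate 2, where members were 2.45% and 5.34% of neurons. For Pmch they were 3 of 145 and 2 of 56, and for Slc17a6 5 of 849 and 5 of 380. The glucocorticoid receptor gene Nr3c1, chosen after its values were seen, was at 150 and 85.7 CPM in members against 54.8 and 83.6 CPM in other neurons and did not pass the edgeR test (log2 0.72, adjusted p 0.171). Islet-1 (Isl1), a factor of arcuate and other GABA neurons, was at 44.1 and 48.4 CPM against 23.9 and 23.1 CPM, 1 UMI in each of 10 and 13 members, and did not pass either (log2 0.93, adjusted p 0.428).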
